A study of Mus musculus with 2 samples.

Results

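The let-7 microRNAs were described in embryonic mouse kidney through 10 annotated genes, the let-7 genes and Mir98, whose microRNA has the same seed. They were taken by gene symbol, not by level, from the 1973 microRNA genes of the deposited count tables, although earlier results of these data were known. Of the 1973 genes, 345 were detected, with 10 or more counts in each library. All 10 members were among the detected genes. Mirlet7e and Mirlet7f-1 had no row of their own and were not analysed here. The study sequenced RNA of less than 30 nucleotides from kidneys of B6NCrl mouse embryos, of mixed sex per the labels, at 14.5 days of gestation. There was 1 group of 2 biological replicates with no treatment, transgene or deletion named, so no condition could be compared. Each replicate came from a pair of kidneys, and the collection dates differed. The labels name a single pup for each replicate but also pooled sexes and an identical donor identifier, so the number of animals behind each library is not settled. Every SD below measures how far these 2 samples lay apart, part of which may be technical.

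A microRNA gene is transcribed as a longer precursor, from which Drosha and Dicer cut a hairpin and then its mature strands, called 5p and 3p after the arm they come from. The seed, bases 2 to 8 of the mature strand, pairs with target messenger RNAs, and members of a family share it. The let-7 family rises as animal tissues differentiate, restrains growth genes such as Hmga2, Lin28b and Ras genes, and is itself held back by the RNA-binding proteins LIN28A and LIN28B, which bind the hairpin loop of many members and block its maturation.

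The 5p strands of the 10 members comprise 8 different sequences in RefSeq (build GRCm38.p6), and all 10 hairpins were matched there. They are shown because the count of each gene depends on whether a read can be placed on a single hairpin. The seed is in capitals.
let-7i-5p: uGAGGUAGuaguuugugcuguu
let-7g-5p: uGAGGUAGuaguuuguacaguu
let-7d-5p: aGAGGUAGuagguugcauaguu
miR-98-5p: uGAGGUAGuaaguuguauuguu
let-7b-5p: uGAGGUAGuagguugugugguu
let-7f-5p: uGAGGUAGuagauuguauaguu
let-7a-5p: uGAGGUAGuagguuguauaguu
let-7c-5p: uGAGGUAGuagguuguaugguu

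All 8 have the seed GAGGUAG, which 11 of 1679 mature names in the RefSeq table carry. The other 3 are let-7e-5p, let-7k and miR-1961. All 8 are 22 bases long and differ only outside the seed. Counted from the 5′ end and with let-7a-5p first, let-7c-5p differs by A19G and let-7f-5p by G12A. The sequence of let-7b-5p differs by A17G and A19G, let-7d-5p by U1A and U16C, and miR-98-5p by G11A and A19U. The changes in let-7g-5p are G12U and U18C, and those in let-7i-5p are G12U, A17G, U18C and A19U. The sequences of let-7g-5p and let-7i-5p therefore share G12U and U18C and differ from each other at 2 bases. The fewest differences to any other family sequence were 2 for let-7i, let-7g, let-7d and miR-98, and 1 for let-7a, let-7b, let-7c and let-7f.

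**Figure D1:**
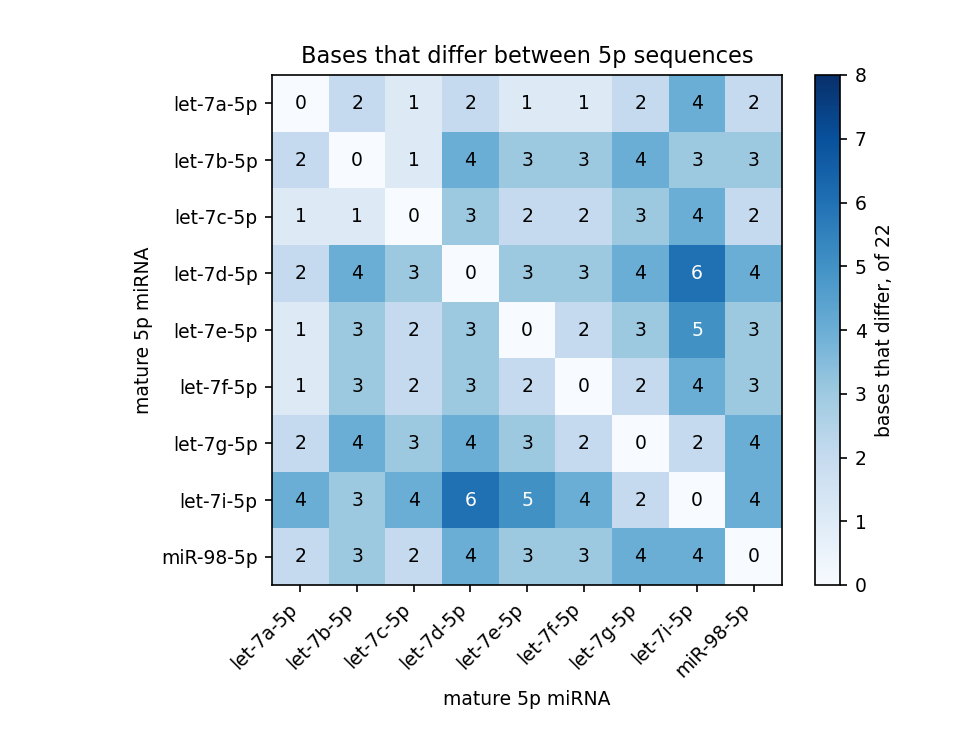
Number of bases that differ between each pair of the 22-base mature 5p sequences of the family in RefSeq, with let-7e-5p included. Rows and columns are mature microRNAs, and each cell gives the count of differing bases. Sequences of different name differ by 1 to 6 bases, the most being between let-7d-5p and let-7i-5p.

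The 5p sequences of let-7i, let-7g, let-7d, miR-98 and let-7b each lie in a single hairpin of the table. Those of let-7a, let-7c and let-7f each lie in 2 hairpins, namely Mirlet7a-1 with Mirlet7a-2, Mirlet7c-1 with Mirlet7c-2, and Mirlet7f-2 with Mirlet7f-1. A read of exactly the mature let-7a, let-7c or let-7f strand thus has 2 equally good places in the genome. Reads that mapped to several places made up 28.3% of all reads in replicate 1 and 27.5% in replicate 2, and they enter no gene's count. How many of them were let-7 reads was not tested, because the tables tally them without naming genes. The counts of Mirlet7a-1, Mirlet7a-2, Mirlet7c-1, Mirlet7c-2 and Mirlet7f-2 are therefore uncertain and cannot be read as the level of let-7a, let-7c or let-7f.

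Depth was 5202588 counts on the strand of microRNA genes in replicate 1 and 3683978 in replicate 2. Levels are given as CPM, counts per 1000000 such counts. A count of 0 allows up to 3 counts, which is 0.577 CPM in the first library and 0.814 CPM in the other. The tissue label was checked on marker microRNAs. Lists for Hox-patterned trunk tissue (5 of 5 genes detected, summed level 244757 and 247352 CPM), epithelium (5 of 5, 26800 and 23488 CPM), stroma (5 of 5, 24805 and 25420 CPM) and kidney tubule (3 of 5, 354 and 490 CPM) were present. Endothelial Mir126a stood at 45180 and 47759 CPM. Of the 5 neural genes with a row none was detected, the sum being 1.35 and 1.90 CPM with Mir124a-1, Mir124a-2 and Mir124a-3 at 0. The muscle list had 1 of 4 detected, at 72.3 and 53.5 CPM in sum, with Mir1a-1, Mir133a-1 and Mir133a-2 at 0. Numbered copies in the neural and muscle lists, such as Mir124a-1 and Mir124a-2, may make the same mature strand. Reads of such a strand would enter no gene's count, so low counts of these copies cannot check the tissue label. Some genes of the trunk, stroma and kidney tubule lists also share mature sequences with other hairpins, so those sums may leave out reads too. The leukocyte list had 2 of 2 detected, at 279 and 281 CPM.

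Together the 10 members held 9.81% of counts in the first library and 8.90% in the other. The 95% exact binomial intervals (Clopper-Pearson) were 9.79 to 9.84 and 8.87 to 8.93, and the mean share was 9.35% ± 0.648 (SD, n = 2). The intervals cover counting error only, since amplified reads are not independent molecules. In whole kidneys, fewer cells that make a microRNA and less of it in each cell cannot be told apart. Of all reads, unmapped and multiply mapped ones included, the members held 4.89% and 4.84%. Within the family, Mirlet7i and Mirlet7g alone held 78.6% and 81.2% of counts. The 5 members whose 5p sequence lies in a single hairpin held 98.1% of family counts in replicate 1 and 98.3% in replicate 2, and the 5 with a shared 5p sequence held 1.93% and 1.68%. Family counts leave out let-7 reads that mapped to several places, and any of Mirlet7e and Mirlet7f-1, which had no row. These shares within the family therefore describe assigned counts and not the make-up of let-7 in the tissue. Counts on the strand opposite to the members were 2 in replicate 1 and 3 in replicate 2, or 0.000392% and 0.000915% of their counts on both strands. The same share over all microRNA genes was 1.93% and 1.80%.

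The levels of the members are not split by arm, because the tables count the whole hairpin. Mirlet7i (ENSMUSG00000065406.2, mm10 chr10:122985640-122985724, minus strand) was the most abundant. Its level was 40718 and 40565 CPM in replicates 1 and 2, or 40642 ± 108 CPM (SD, n = 2). It ranked 5 among all microRNA genes by mean CPM, and its libraries differed least of the family. In GENCODE M21 it lies in D630033A02Rik, a transcribed pseudogene on the same strand, in an exon of 1 transcript and an intron of another. Mirlet7g (ENSMUSG00000065440.1, chr9:106178840-106178927, plus strand), in an intron of Wdr82, stood at 36374 and 31710 CPM, or 34042 ± 3298 CPM, and ranked 7. Mirlet7i exceeded it in both libraries, by 0.26 ± 0.14 on the log2(CPM + 1) scale (SD, n = 2). These genes encode the closest related sequences among the 4 highest members.

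Mirlet7d (ENSMUSG00000065453.1, chr13:48536012-48536114, minus strand), in an exon of the lincRNA 6720427I07Rik, stood at 11103 and 7995 CPM, or 9549 ± 2198 CPM. It was lower than Mirlet7g by 1.85 ± 0.20 in log2. Mir98 (ENSMUSG00000065536.2, chrX:151913214-151913321, plus strand), in an intron of Huwe1, a ubiquitin ligase gene, had 6066 and 5671 CPM, or 5868 ± 279 CPM. Mirlet7d exceeded Mir98 by 0.68 ± 0.27 in log2, and their ranges did not overlap. Mirlet7b (ENSMUSG00000065564.1, chr15:85707319-85707403, plus strand), in an exon of the noncoding Lncppara, had 1977 and 1534 CPM, or 1756 ± 313 CPM. It stood 1.75 ± 0.19 below Mir98 in log2.

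Among members with a shared 5p sequence, Mirlet7f-2 (ENSMUSG00000065602.1, chrX:151912346-151912428, plus strand) was the highest. It stood at 1335 and 1125 CPM, or 1230 ± 149 CPM, and lies in an intron of Huwe1 like Mir98. Mirlet7b exceeded it by 0.51 ± 0.08 in log2, without overlap. The next member down was 3.08 ± 0.41 lower in log2, the widest gap between neighbours in the family's order. Mirlet7a-2 (ENSMUSG00000092770.1, chr9:41536716-41536811, plus strand), in introns of 3110039I08Rik and Gm49317, had 192 and 108 CPM. Mirlet7a-1 (ENSMUSG00000065421.2, chr13:48538179-48538272, minus strand), in an exon of 6720427I07Rik, had 173 and 114 CPM. Their order swapped between the libraries, and with means of 150 ± 59.7 and 143 ± 41.2 CPM they did not differ beyond their spread.

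Mirlet7c-1 (ENSMUSG00000065557.2, chr16:77599657-77599750, plus strand), in an intron of Mir99ahg, had 106 and 85.0 CPM, or 95.2 ± 14.5 CPM. Mirlet7c-2 (ENSMUSG00000065608.1, chr15:85706603-85706697, plus strand), in an exon of Lncppara, had 86.1 and 59.7 CPM, or 72.9 ± 18.7 CPM. Their ranges overlapped, although Mirlet7c-1 was higher within each library. Mirlet7a-1 lay 0.56 ± 0.20 above Mirlet7c-1 in log2, with no overlap. The order of the 10 means was identical when CPM was divided by hairpin length.

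**Figure D2:**
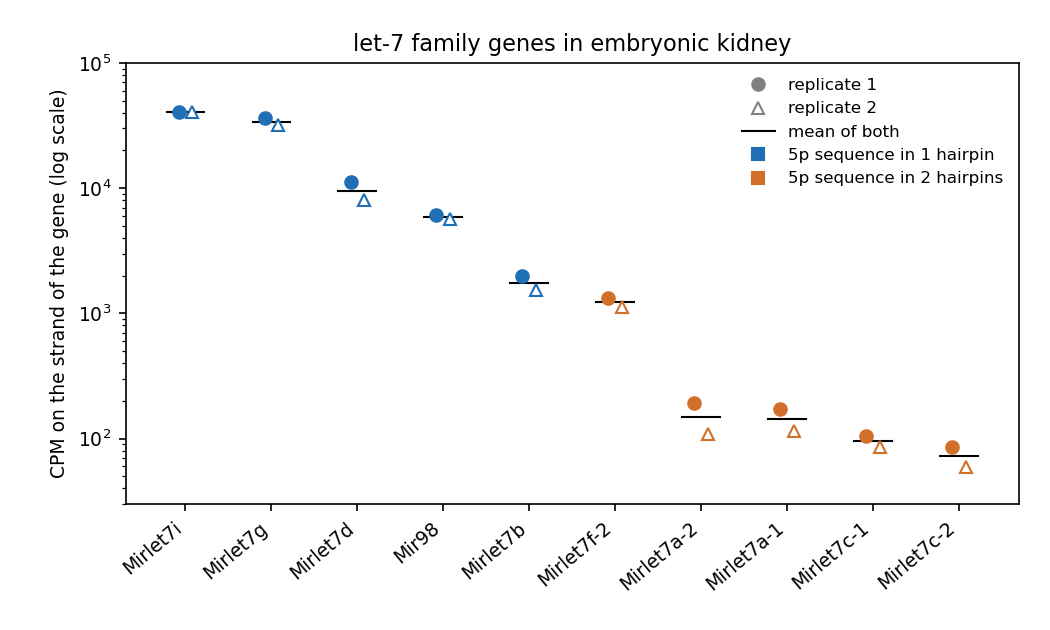
Level of each member in CPM on a log axis, with circles for replicate 1, triangles for replicate 2 and a line at their mean. Blue marks members whose mature 5p sequence lies in 1 hairpin and orange those with it in 2 hairpins. Blue members run from 40642 CPM (Mirlet7i) to 1756 CPM (Mirlet7b) and orange members from 1230 CPM (Mirlet7f-2) to 72.9 CPM (Mirlet7c-2).

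The members with a shared 5p sequence were not all alike in their 3p strands. They are shown because a 3p read can place a count on a gene whose 5p reads have 2 homes. Capitals again mark bases 2 to 8.
let-7f-2-3p: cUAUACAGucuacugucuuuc
let-7a-2-3p: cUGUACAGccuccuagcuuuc
let-7c-1-3p: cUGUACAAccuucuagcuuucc
let-7a-1-3p: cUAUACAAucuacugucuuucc
let-7c-2-3p: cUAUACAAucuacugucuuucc

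The 3p sequences of let-7f-2, let-7a-2 and let-7c-1 were each found in a single hairpin, whereas those of let-7a-1 and let-7c-2 are identical. For Mirlet7a-1 and Mirlet7c-2, then, both annotated mature strands occur in another hairpin, and yet the genes had 898 and 421 counts and 448 and 220 counts in replicates 1 and 2. Beyond the mature end the hairpins do differ. On the 3′ side of the 5p strand, 1 further base tells Mirlet7f-2 from Mirlet7f-1, and 2 further bases tell apart the let-7a and the let-7c pairs. On the 5′ side 1 further base is enough for each. Which reads made these counts was not tested, since the tables hold no read sequences.

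The same grouping was applied to all detected genes, within the hairpins of the table, which is not complete. Of 253 whose listed mature sequences each lie in a single hairpin, the 248 that are no members had a median of 115 CPM, and the 5 members had 9549 CPM. Where some mature sequences were shared, the 34 other genes had a median of 55.6 CPM, beside 150 CPM for Mirlet7f-2, Mirlet7a-2 and Mirlet7c-1. Where all were shared, the 6 other genes had a median of 36.1 CPM, beside 108 CPM for Mirlet7a-1 and Mirlet7c-2. The other 47 detected genes were not matched in the RefSeq table. In each group the family's median lay above that of the other genes, and the grouping was not tested for a difference.

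**Figure D3:**
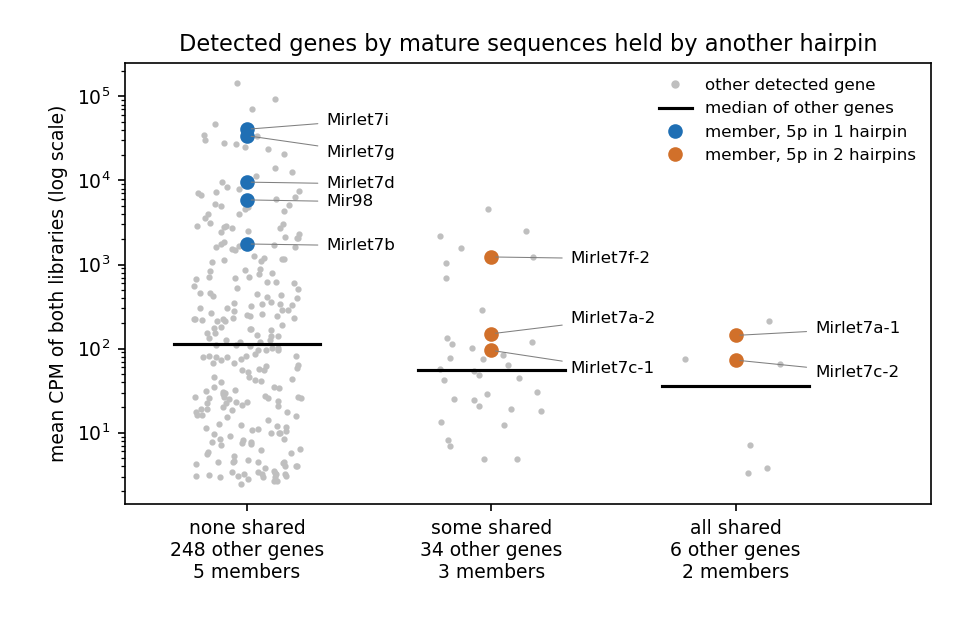
Mean CPM of both libraries on a log axis for detected genes matched in RefSeq, grouped by whether none, some or all of their mature sequences lie in another hairpin. Grey points are other genes with a line at their median, and coloured points are let-7 members. The medians of the other genes were 115, 55.6 and 36.1 CPM from left to right, and each of the 10 members lies above the median of the other genes in its group.

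The hairpin loops of 9 members, read between the end of the 5p and the start of the 3p strand, are shown because GGAG is the motif to which the zinc knuckles of LIN28 proteins bind. GGAG is in capitals wherever it occurs.
Mirlet7i: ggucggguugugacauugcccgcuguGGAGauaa
Mirlet7g: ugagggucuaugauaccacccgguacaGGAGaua
Mirlet7d: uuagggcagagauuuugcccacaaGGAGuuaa
Mirlet7f-2: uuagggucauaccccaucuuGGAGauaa
Mirlet7a-2: uagaguuacaucaagGGAGauaa
Mirlet7a-1: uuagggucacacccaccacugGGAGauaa
Mirlet7c-1: uagaguuacacccugGGAGuuaa
Mirlet7b: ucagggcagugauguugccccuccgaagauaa
Mirlet7c-2: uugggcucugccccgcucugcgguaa

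The letters GGAG, searched on the RNA strand only, were present in 7 of the 9 loops (77.8%). They lay 4 bases before the 3p strand in 6 of these and 3 bases before it in Mirlet7g. Over all 644 hairpins of the table with both arms listed, 52 (8.07%) had the letters between their arms, in loops of any length. The letters were not in the loops of Mirlet7b and Mirlet7c-2, whose mean levels were 1756 and 72.9 CPM. Members with the motif spanned 95.2 CPM (Mirlet7c-1) to 40642 CPM (Mirlet7i), so the levels of both sets overlapped. A match describes the letters and says nothing about binding in these samples.

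Several members share a primary transcript with other microRNA genes, and their levels were compared within each library on the log2(CPM + 1) scale. In each of the 7 pairs described, the member with a 5p sequence in 2 hairpins was the lower gene in both libraries. The miR-100 and miR-125 genes that accompany let-7 are an ancient arrangement, and their own 5p strands have other seeds. Mir100 on chromosome 9 stood at 6208 and 6450 CPM, and Mirlet7a-2, starting 5291 bases further on, was lower by 32.3-fold in replicate 1 and 59.8-fold in replicate 2. The log2 difference, Mirlet7a-2 minus Mir100, was -5.45 ± 0.63 (SD, n = 2). Mir125b-1, with 444 and 613 CPM, differed less, Mirlet7a-2 minus Mir125b-1 being -1.85 ± 0.91. Divided by hairpin length, these differences were -5.71 and -2.17. Mir125b-1 and Mir125b-2 make the same 5p strand, so their own counts are uncertain too.

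On chromosome 16 the contrast was the widest of the 7 pairs. Mir99a, a close relative of Mir100, had 35886 and 33764 CPM, and Mirlet7c-1, starting 721 bases downstream, was 340-fold and 397-fold lower (log2 difference -8.51 ± 0.16). Mir125b-2 had 326 and 362 CPM, and Mirlet7c-1 minus Mir125b-2 was -1.85 ± 0.32. Divided by hairpin length, the 2 differences on chromosome 16 were -9.04 and -2.25.

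In 3 clusters both genes with a row of counts were members. The hairpin of Mirlet7f-1, which had no row, lies between Mirlet7a-1 and Mirlet7d on chromosome 13. Mirlet7a-1 and Mirlet7d lie on chromosome 13 with starts 2167 bases apart, and Mirlet7a-1 was 64.3-fold lower in replicate 1 and 70.0-fold lower in replicate 2 (log2 difference -6.06 ± 0.08). Mirlet7c-2 and Mirlet7b lie on chromosome 15 with starts 716 bases apart, and Mirlet7c-2 was 23.0-fold and 25.7-fold lower (-4.58 ± 0.11). Mirlet7f-2 and Mir98 lie on chromosome X with starts 868 bases apart, and Mirlet7f-2 was 4.54-fold and 5.04-fold lower (-2.26 ± 0.11). Divided by hairpin length, these 3 differences were -5.93, -4.74 and -1.88. Each was many times its spread between the libraries. The part of multiply mapped reads in these differences was not tested, and it cannot be told apart here from unequal processing or stability of hairpins on a shared transcript.

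**Figure D4:**
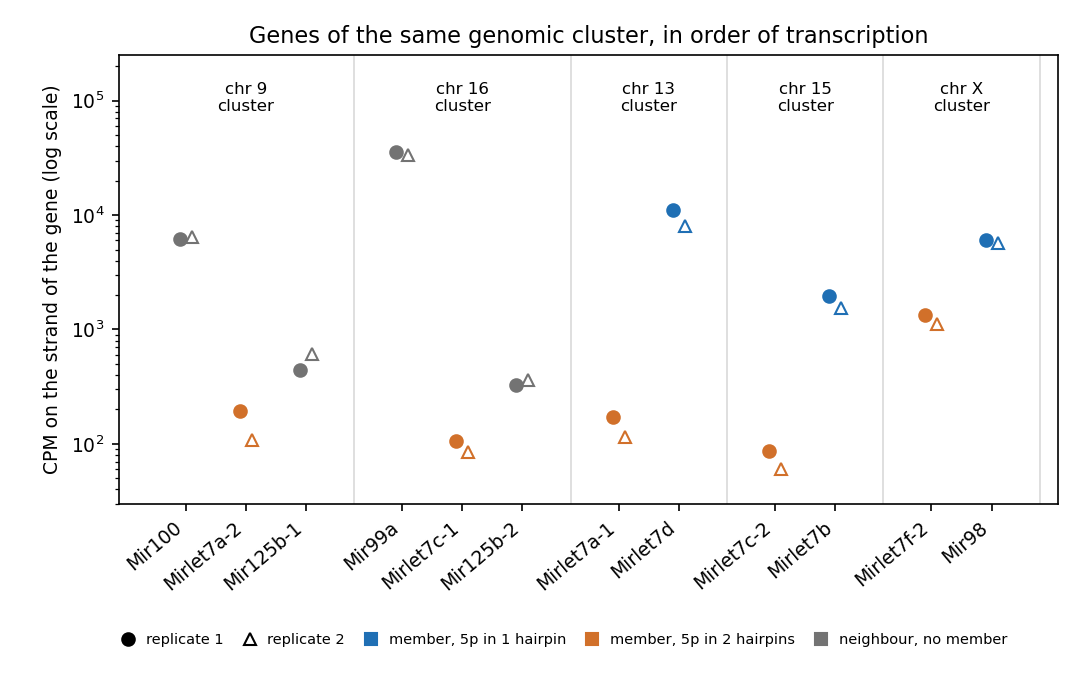
CPM on a log axis of the genes of 5 genomic clusters, each in order of transcription, with circles for replicate 1 and triangles for replicate 2. Blue and orange are let-7 members with the 5p sequence in 1 or 2 hairpins, and grey genes are no members. In every cluster the orange member is the lowest gene shown in both libraries. Mirlet7c-1 is 340-fold and 397-fold lower than Mir99a, and Mirlet7f-2 is 4.54-fold and 5.04-fold lower than Mir98. Mirlet7f-1, on chromosome 13, had no row and is not shown.

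Within 50 kb of a member on its strand there was also Mir135a-1, near Mirlet7g, with 35 and 11 counts (6.73 and 2.99 CPM). Mirlet7i had no annotated microRNA gene within that distance. The genes on either side of the let-7e hairpin on chromosome 17, Mir99b and Mir125a, stood at 20896 and 17732 CPM and at 4103 and 3892 CPM. They give no level for let-7e itself.

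The only comparison the series allows is of its libraries with each other. On log2(CPM + 1), all 10 members were lower in replicate 2, from Mirlet7i at -0.0054 to Mirlet7a-2 at -0.83, with a median of -0.34. The median over all 345 detected genes was 0.02, with quartiles of -0.20 and 0.24, and 162 of the 345 genes were lower. The 5 members with a 5p sequence of their own had a median of -0.20 and the 5 with a shared one -0.52. The direction for Mirlet7i depended on the scaling, the ratio being 0.00036 with TMM factors (95% exact interval -0.0092 to 0.0099) and -0.035 with DESeq2 size factors. Scaled to all reads of each library, Mirlet7i at 0.12 and Mir98 at 0.03 were above 0, while the median of all detected genes was 0.15 and all 10 members lay below it. Since the 10 genes were chosen with such values in view, their shared direction is a description.

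Counts of each gene were set against TMM-scaled library totals in an exact, two-sided binomial test with Benjamini-Hochberg adjustment over the 345 genes, which asks whether a ratio exceeds counting error. At an adjusted p under 0.05, 9 of the 10 members passed and all 9 fell in replicate 2. Over all detected genes 53.6% passed in either direction and 27% passed as lower, and the members' count is given beside these shares as a description. None of the 10 passed with a ratio whose log2 was 1 or more in size, against 3.19% of all genes. The test sets 2 libraries against each other, not conditions, and takes no spread between animals into account. With edgeR's exact test and an assumed coefficient of variation of 0.2 between replicates, 0 members passed (1 at an unadjusted p under 0.05), and 2 of all 345 genes did.

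By abundance, Mirlet7g fell by 0.19 in log2 (exact binomial test, adjusted p = 6.79e-282, 95% interval -0.20 to -0.18) and Mirlet7d fell by 0.47 (-0.49 to -0.45). Those intervals do not meet, and the interval of Mirlet7i, given above, meets neither. Mir98 fell by 0.09 (exact binomial test, adjusted p = 6.09e-12), the smallest change among the 9 members that passed. Mirlet7d and Mirlet7a-1, of the same primary transcript, fell by 0.47 and 0.59. Mirlet7b and Mirlet7c-2, again of a single transcript, fell by 0.36 and 0.52, and Mirlet7f-2, the partner of Mir98, fell by 0.24. Mirlet7a-2, with 1000 and 397 counts, fell by 0.83, whereas its neighbours Mir100 and Mir125b-1 had ratios of 0.06 and 0.47. Mirlet7c-1 fell by 0.31 (exact binomial test, adjusted p = 0.0058), beside -0.08 for Mir99a and 0.16 for Mir125b-2. In both of these clusters the let-7 gene had the lowest ratio of the 3 genes, and the difference between ratios was not tested.

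**Figure D5:**
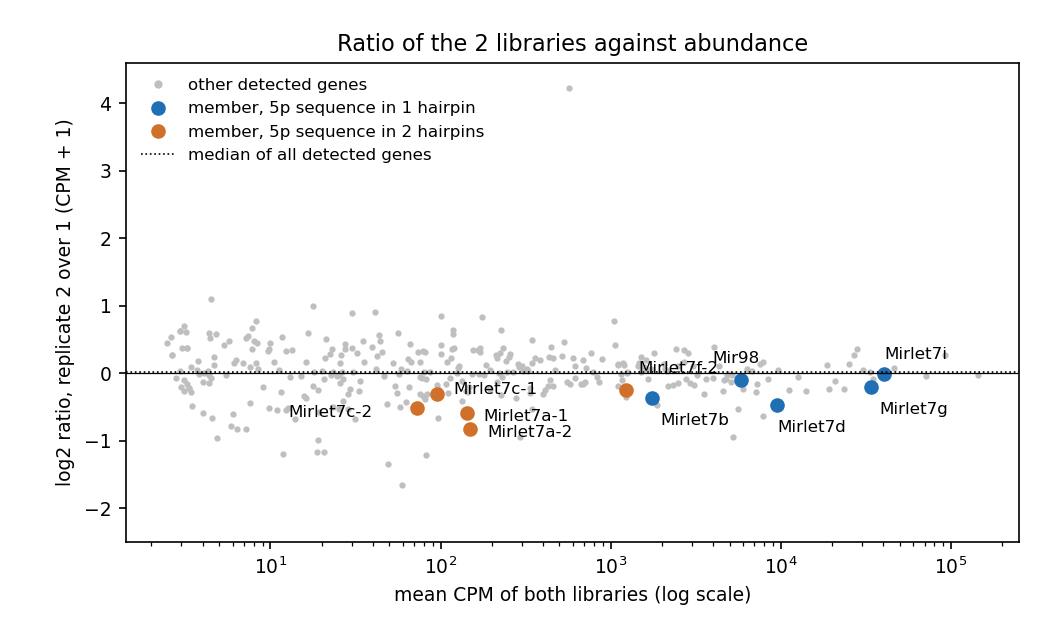
Log2 ratio of CPM + 1, replicate 2 over replicate 1, against the mean CPM of both libraries on a log axis, for all 345 detected genes. Coloured points are let-7 members, grey points are other genes, and the dotted line is the median of all detected genes at 0.02. The members lie between -0.83 (Mirlet7a-2) and -0.0054 (Mirlet7i, which is at 0.00036 with TMM factors), all under that line.

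Markers of other cells differed between the libraries at the same time. Mir122, the microRNA of hepatocytes, had 293 counts (56.3 CPM) in replicate 1 and 3957 counts (1074 CPM) in replicate 2. The erythroid list, detected in 3 of 3 genes, summed to 161 and 77.6 CPM in replicates 1 and 2. Within it Mir451a had 115 and 49.1 CPM, and Mir144 had 38.8 and 23.9 CPM. Of the lists given above, the sums for epithelium and muscle were also lower in replicate 2. The sums for kidney tubule, Hox-patterned trunk tissue and stroma were higher, as was endothelial Mir126a. In these lists and in epithelium, the detected genes went both ways. Their log2 ratios on CPM + 1 ran from -0.21 to 0.86 for tubule and from -0.04 to 0.36 for Hox-patterned tissue. For stroma they ran from -0.23 to 0.19 and for epithelium from -0.26 to 0.07. The leukocyte sums were close, at 279 and 281 CPM. No neural gene was detected, so the neural sums of 1.35 and 1.90 CPM cannot be ranked. The part of these markers in the lower let-7 values was not tested.

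By Euclidean distance in log2(CPM + 1) over the 2 libraries, the detected genes outside the family most like Mirlet7i were Mir126a (0.28), Mir99a (0.32) and Mir17 (0.39). Those most like Mirlet7g were Mir99a (0.09), Mir17 (0.15) and Mir322 (0.28). With only 2 libraries this likeness is one of level.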

How the data were processed

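The authors deposited raw read counts per microRNA gene for each library, per the file descriptions aligned to mm10 and counted on GENCODE M4; the aligner and the counter were not given in the sources used here. The first 4 rows of each table name no gene (unmapped, multiply mapped, ambiguous and featureless reads) and were left out, unmapped reads being 16.8% and 14.1% and featureless reads 4.06% and 2.91% of all reads. Levels and tests used counts on a gene's own strand. Logs took a pseudocount of 1 CPM. Symbols, positions and host genes came from GENCODE M21 (mm10; 1894 of 1973 identifiers matched) and sequences from RefSeq (1005 hairpins).

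With 1 group, edgeR's quasi-likelihood test had no contrast. The exact binomial test used TMM factors of 1.002 and 0.998. Alternatives were DESeq2 size factors, totals alone, other count minimums and pseudocounts, edgeR's exact test, counts of both strands, division by hairpin length and each library alone. Only the binomial test, with its ratios and intervals, was tried on simulated counts, which had no spread between replicates beyond counting error. Python 3.11.15 ran scipy 1.17.1, pandas 2.3.3, matplotlib 3.10.9 and numpy 2.4.6, and DESeq2 1.42.0 and edgeR 4.0.16 ran in R 4.3.3.

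The hairpin loop of 1 member is not reported here. Members and marker lists were chosen with earlier results of these data known. Named genes were all members, microRNA genes within 50 kb on the same strand, the 3 detected genes outside the family nearest in level to Mirlet7i and to Mirlet7g, and Mir122, Mir451a and Mir144. Mir99b, Mir125a, let-7j, let-7k and miR-1961 and the 3p strands were added after values were seen. Other marker genes were named only at 0, except Mir126a, the single gene of its list, and Mir10a, which an alternative leaves out.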

Additional observations from a re-analysis of the deposited data

How the results depend on the processing

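The family's share of counts was 10.9% without Mir10a, the most abundant gene, and 4.86% of all reads. With Mirlet7i and Mirlet7g left out of members and total, an alternative chosen after seeing the data, it was 2.04%. The members that passed between the libraries fell from 9 to 0 with edgeR's exact test, both with the assumed and with the estimated coefficient of variation, where 0.58% of all tested genes passed. The estimated coefficient, 0.1998, was nearly the assumed 0.2, so the runs are not separate checks. It also came from the difference between the same libraries that were then compared, which leaves few genes able to pass. Members that passed were 9 or 10 under the 5 other settings, where 25.1% (a minimum of 1 count) to 67.7% (a minimum of 50 counts) of all tested genes passed. The ratio of Mirlet7i was -0.035 with DESeq2 size factors, where it passed, and -0.0054 with totals alone, where it did not. The median ratio was -0.20 over members with a 5p sequence of their own. Divided by hairpin length, the log2 difference was -9.04 for Mirlet7c-1 minus Mir99a, -2.25 for Mirlet7c-1 minus Mir125b-2, -4.74 for Mirlet7c-2 minus Mirlet7b, -1.88 for Mirlet7f-2 minus Mir98 and -5.93 for Mirlet7a-1 minus Mirlet7d. The median ratio of all detected genes was 0.02 with totals or TMM and -0.01 with DESeq2 size factors. Apart from these, the alternatives run kept their direction and side of the threshold, or moved by less than the spread between the libraries. For each library alone the last was fixed by arithmetic, since either of 2 values lies closer to their mean than their SD. Those runs therefore do not test how stable the results are. No paired analysis was possible because the series has a single group. Depth limits Mirlet7c-2 most, at 448 and 220 counts.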

Other observations

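Another let-7 gene of the annotation is Mir7j, whose mature strand let-7j is shown because it differs from let-7i-5p within the seed. Capitals mark bases 2 to 8.
let-7i-5p: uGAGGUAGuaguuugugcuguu
let-7j: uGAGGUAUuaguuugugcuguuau

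Over 22 bases the strands differ at 1 position, G8U counted from the 5′ end of let-7i-5p, so that let-7j has the seed GAGGUAU and is not in the family's seed group. Mir7j (mm10 chr3:140028249-140028370, plus strand) had 1060 counts in replicate 1 and 975 in replicate 2, or 204 and 265 CPM. It was higher in replicate 2 by 0.38 in log2 (exact binomial test, adjusted p = 1.14e-08). With edgeR's exact test and an assumed coefficient of variation of 0.2 it did not pass (adjusted p = 1). Mirlet7i had 211840 and 149441 counts in replicates 1 and 2. Whether reads of let-7i, which differs at 1 base, entered the count of Mir7j was not tested, since no read sequences are given. The genes Mir7k and Mir1961, whose mature strands do carry the let-7 seed, had 0 counts in both libraries. A count of 0 allows levels up to 0.577 and 0.814 CPM. They were chosen after their values were seen.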
